A study of Homo sapiens with 2 samples.

Results

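Of 10 genes for neuronal differentiation factors, 7 had a NeuroD1 peak in the gene body or up to 50 kb from either end in IMR-32 cells, and ST18, MYT1 and EBF2 had none. The 10 genes are INSM1, INSM2, SCRT1, SCRT2, ST18, MYT1, MYT1L, EBF1, EBF2 and EBF3. They belong to families known to act downstream of proneural bHLH factors. They were chosen by name and not by a cut on peak values, but with earlier results of these data known. Together they held 10 of the 6183 deposited peaks, while 39.9% of the 20033 protein-coding genes had a peak by the same rule. IMR-32 is a neuroblastoma cell line with amplified MYCN, and its genotype is labelled as WT. ChIP-seq maps the binding sites of a protein by sequencing the DNA that an antibody against it recovers from chromatin, and a peak is a site where such fragments outnumber the local background. The series holds 1 ChIP library, labelled with a NeuroD1 antibody, and 1 input library of chromatin without antibody, which was not analysed here. The ChIP-seq methods of the study name an H3K27Ac antibody instead, but its list of antibodies includes the NeuroD1 antibody of the label, and H3K27Ac was mapped by a separate assay, CUT&Tag. The list was used here as labelled, as one of NeuroD1 peaks. No replicate was available, so no test between samples was possible, and every interval covers counting error only.

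Proneural bHLH factors pair with E proteins, bind E-boxes (CANNTG) and switch on further transcription factors that carry neuronal differentiation forward. NeuroD1 is itself a neurogenic bHLH factor and is known to bind E-boxes such as CATCTG and CAGCTG. The genes described here belong to 4 families. INSM1 and INSM2 are zinc finger repressors, and INSM1 is needed in sympathoadrenal and endocrine cells. SCRT1 and SCRT2 are the neuronal Scratch repressors of the Snail superfamily, which also bind E-boxes. ST18, MYT1 and MYT1L are zinc finger factors of the MYT family, and MYT1L is known for repressing non-neuronal genes in neurons. EBF1, EBF2 and EBF3 are helix-loop-helix factors of the COE family with roles in neuronal differentiation and, for EBF1, in B cells.

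The promoter that carried a peak among the members with a promoter sequence was that of INSM2, and it is shown with 3 others for comparison. RefSeq promoter windows of GRCh38.p14 run from 250 bases before the start of transcription to 50 after it, and 6 of the 10 genes matched one by symbol (INSM2, SCRT2, MYT1, MYT1L, EBF1 and EBF3). GADD45G, a stress-inducible gene known as a proneural target, is shown as a promoter with an E-box close to the summit of a peak. It comes from the 2 further lists of genes described below, where 10 windows carried a peak. Of these 10, 6 held an E-box, and that of GADD45G lay closest to a summit, so it is not typical of them. The window at the most upstream MYT1L start is shown because a peak lay beside it, and that of MYT1 because no peak lay near the gene. Each sequence has 280 bases and is written 5′ to 3′ on the strand of the gene, ends 30 bases after the start, and has each E-box (CANNTG) in capitals.
INSM2, chr14:35533914-35534193, forward strand: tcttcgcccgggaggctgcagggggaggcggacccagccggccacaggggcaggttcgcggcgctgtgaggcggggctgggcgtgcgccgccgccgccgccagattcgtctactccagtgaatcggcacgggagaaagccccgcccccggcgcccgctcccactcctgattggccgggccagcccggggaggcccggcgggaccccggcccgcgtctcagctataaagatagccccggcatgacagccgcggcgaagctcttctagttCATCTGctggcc
GADD45G, chr9:89604762-89605041, forward strand: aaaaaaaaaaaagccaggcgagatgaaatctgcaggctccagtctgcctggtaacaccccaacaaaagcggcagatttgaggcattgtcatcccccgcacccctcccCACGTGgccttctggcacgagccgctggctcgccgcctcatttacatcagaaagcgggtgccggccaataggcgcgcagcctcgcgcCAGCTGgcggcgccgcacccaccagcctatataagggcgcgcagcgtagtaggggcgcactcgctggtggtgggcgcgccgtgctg
MYT1L, chr2:2331246-2331525, reverse strand: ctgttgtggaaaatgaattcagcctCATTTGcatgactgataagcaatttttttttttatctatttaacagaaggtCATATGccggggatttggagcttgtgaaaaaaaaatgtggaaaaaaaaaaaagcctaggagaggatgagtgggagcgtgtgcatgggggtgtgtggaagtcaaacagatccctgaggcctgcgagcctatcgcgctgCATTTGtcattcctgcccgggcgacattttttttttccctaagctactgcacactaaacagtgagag
MYT1, chr20:64164202-64164481, forward strand: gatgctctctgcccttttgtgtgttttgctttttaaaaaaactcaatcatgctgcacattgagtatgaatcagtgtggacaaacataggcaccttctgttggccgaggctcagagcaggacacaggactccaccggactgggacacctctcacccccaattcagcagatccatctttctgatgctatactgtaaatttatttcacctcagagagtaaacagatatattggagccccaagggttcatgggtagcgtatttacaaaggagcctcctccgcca

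In the INSM2 promoter, the single E-box was a CATCTG from base 19 to base 24 after the start, inside the peak and 46 bp from its summit. The peak ran from 107 bases before the start to 39 bases after it. In the GADD45G promoter, the CAGCTG lay from 56 to 51 bases before the start, inside the peak and 5 bp from its summit, and a CACGTG lay outside the peak. The MYT1L window held 3 E-boxes, of which the one closest to the start was a CATTTG from 37 to 32 bases before it, with no peak over the window. The MYT1 window held no E-box and no peak. Over all 22198 promoter windows of protein-coding genes, 65.1% held a CANNTG and 12.2% held CATCTG or its reverse complement CAGATG. Of the 2454 windows overlapped by a peak, 56.2% held a CANNTG (95% exact Clopper-Pearson interval 54.2% to 58.2%) and 8.23% held CATCTG or CAGATG (7.17% to 9.39%). For CAGCTG the shares were 18.7% with a peak and 17.9% without one. The study itself reports that NeuroD1 motifs were enriched in a HOMER motif search of its NeuroD1 sites. The shares given here cover promoter windows only and count whole windows, so they are a different measure. Among windows of 70% GC or more, to which that of INSM2 belongs with 73.0%, CATCTG or CAGATG was present in 5.85% with a peak and 4.56% without one. In windows of lower GC the order was reversed. The share was lower with a peak under 50% GC and from 50% to 60%, and slightly lower from 60% to 70%. The E-box of the INSM2 window is given as a description of its letters.

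The promoter window carried a peak in 1 of the 6 genes with a window, against 13.7% of the 15842 protein-coding genes that had one. That single peak, at INSM2, had −log10 q = 3.31 and was lost with a minimum of 5. The other 8 windows of these genes (4 of them for MYT1L) held no peak. INSM1, SCRT1, ST18 and EBF2 had no window, so this count says nothing of their promoters. INSM1 had a peak across its lower-coordinate end, with −log10 q = 10.9. Whether that end is the start of INSM1 was not examined, since its strand came only with a window. In the gene body, 5 of the 10 genes had a peak (INSM1, INSM2, MYT1L, EBF1 and EBF3), against 16.0% of protein-coding genes. Within 3 kb of the body the number was 6, with SCRT1 added, against 21.4%. Only 1 gene was added between 3 kb and 50 kb, SCRT2. The count of 7 genes stayed the same out to 100 kb, where the share of protein-coding genes reached 50.8%. Long genes can hold more peaks, so genes were also split by length. Among the members of at least 100 kb (ST18, MYT1L, EBF1, EBF2 and EBF3), 3 of 5 had a peak, against 43.3% of such protein-coding genes. Among the shorter ones, 4 of 5 had a peak, against 39.2%. With 10 genes chosen by name and 1 library, these shares are given side by side and no difference was tested.

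The 10 peaks were of middling height among all peaks. The fold enrichment of a peak divides the pileup of ChIP fragments at its summit by the local background, after adding 1 to both. Its median was 7.05 over the 10 peaks and 6.79 over all 6183, and the 10 values ran from 5.31 to 10.6. Of the 10 peaks, 7 lay above the median of all peaks and 1 above the upper quartile of 8.68. The deposited values also gave the ChIP fragments at each summit, from 10 to 23 with a median of 17, which was also the median over all peaks. The local background of the 10 peaks ran from 1.04, the lowest in the list, to 2.0, with a median of 1.18 against 1.31 over all peaks. The counting intervals of all 10 peaks overlapped, since the highest lower bound was a fold enrichment of 6.91 (EBF3) and the lowest upper bound was 9.30 (INSM1). Overlap of separate intervals does not test a difference, and the order of the 10 peaks by height was not tested.

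**Figure D1:**
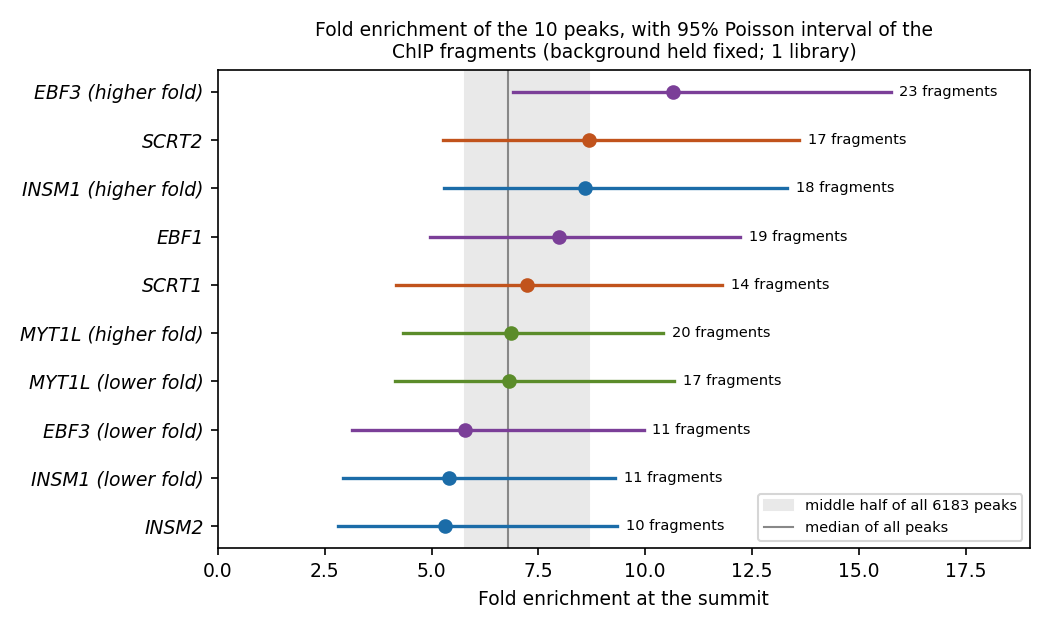
Fold enrichment at the summit (x axis) of each of the 10 peaks (rows), with points for the deposited value and lines for the 95% exact Poisson interval of the ChIP fragments at a fixed background. The grey band spans the quartiles of all 6183 peaks (5.79 to 8.68) and the grey line their median of 6.79, and the lines of all 10 peaks overlap.

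INSM1, which matched no promoter window by symbol, had a peak across its lower-coordinate end. The gene lies on chromosome 20 from 20368104 to 20370949 (hg38), and the peak ran from 20367823 to 20368256, with 281 bases outside the gene and 153 inside. The summit, 94 bp outside the gene, held 18 ChIP fragments (95% exact Poisson interval 10.7 to 28.4), and the background there was 1.17. This gave a fold enrichment of 8.60 with −log10 q = 10.9, higher than 73.4% of all peaks. This was the widest of the 10 peaks, at 434 bp against a median of 220 bp over all peaks. A weaker peak lay 37.6 kb beyond the upper end, from 20408508 to 20408661, inside RALGAPA2, which encodes a subunit of the Ral GTPase activating complex. It had 11 fragments (5.49 to 19.7), a fold enrichment of 5.40 and −log10 q = 3.75. It was the single peak of the 10 whose nearest protein-coding gene was not the member itself.

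At INSM2, the close relative of INSM1, the peak over the promoter was the lowest of the 10. INSM2 lies on chromosome 14 from 35534164 to 35537054, and its peak ran from 35534057 to 35534202, with the summit 28 bp upstream of the start. The summit held 10 fragments (4.80 to 18.4) over the lowest background of 1.04, a fold enrichment of 5.31 and −log10 q = 3.31. By fold enrichment it ranked 5096 of 6183, and 121 peaks of the list, this one included, had exactly that value. The peak stood alone, with 292 kb to the next. Both INSM genes thus had a peak at an end of a gene of under 3 kb, with 18 and 10 fragments whose intervals overlap.

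The Scratch genes each had 1 peak, and both peaks lay outside the gene. The SCRT1 peak on chromosome 8 ran from 144337715 to 144337911, 1.23 kb beyond the upper-coordinate end of the gene (144330565 to 144336482). It had 14 fragments (7.65 to 23.5), a fold enrichment of 7.23 and −log10 q = 7.26. SCRT1 matched no promoter window by symbol. The SCRT2 peak on chromosome 20 ran from 710051 to 710435, and its summit lay 34.5 kb upstream of the SCRT2 start at 675802. It had 17 fragments (9.90 to 27.2), a fold enrichment of 8.68 and −log10 q = 10.6. It overlapped no RefSeq gene, and SCRT2 was the nearest protein-coding gene. Just outside the 50 kb limit, a further peak lay 51.1 kb below SCRT2, with 19 fragments and a fold enrichment of 9.64. Which gene lies nearest to that peak was not examined.

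In the MYT family, MYT1L had 2 peaks, and MYT1 and ST18 had none. MYT1L spans 542 kb of chromosome 2, from 1789113 to 2331275 on the reverse strand, and is at least as long as 98.7% of protein-coding genes. The peak from 2050679 to 2050859 lay deep in the gene, with its summit 274 kb downstream of the nearest of 4 starts. It had 20 fragments (12.2 to 30.9) over a background of 2.0, a fold enrichment of 6.87 and −log10 q = 9.18. The peak from 2333218 to 2333370 lay on the promoter side, with its summit 1976 bp upstream of the most upstream start. It had 17 fragments (9.90 to 27.2) over a background of 1.59, a fold enrichment of 6.82 and −log10 q = 7.86. The difference in fold enrichment between these peaks was far smaller than their counting intervals. For MYT1, on chromosome 20 from 64164452 to 64242253, the nearest peak lay 329 kb away. For ST18, on chromosome 8 from 52110838 to 52409879, it lay 212 kb away, with 11 fragments. No peak was called at these genes at the depth of this library, which does not show that NeuroD1 is absent there.

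The EBF family held the highest of the 10 peaks, inside EBF3. EBF3 lies on chromosome 10 from 129835233 to 129964274 on the reverse strand. Its stronger peak ran from 129870874 to 129871189, with the summit 93.3 kb downstream of the start. It had 23 fragments (14.6 to 34.5) over a background of 1.21, a fold enrichment of 10.6 and −log10 q = 16.6. By fold enrichment it ranked 730 of 6183, above 88.2% of all peaks. The weaker peak, from 129956999 to 129957144, lay 7.23 kb downstream of the start and had 11 fragments (5.49 to 19.7), a fold enrichment of 5.79 and −log10 q = 4.24. The 2 EBF3 peaks had overlapping intervals.

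EBF1 had 1 peak, and EBF2 had none. The EBF1 peak on chromosome 5 ran from 158805316 to 158805510, inside the gene (158695920 to 159099916) and 293 kb downstream of its start. It had 19 fragments (11.4 to 29.7) over a background of 1.46, a fold enrichment of 7.98 and −log10 q = 10.5. It was the most isolated of the 10, with 488 kb to the next peak, against a median of 56.8 kb over all peaks. For EBF2, on chromosome 8 from 25841725 to 26045413, the nearest peak lay 156 kb away, with 13 fragments and a fold enrichment of 6.75. Whether the peaks inside MYT1L, EBF1 and EBF3 lie in exons or introns was not examined here, since the gene table used gives only the ends of each gene.

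**Figure D2:**
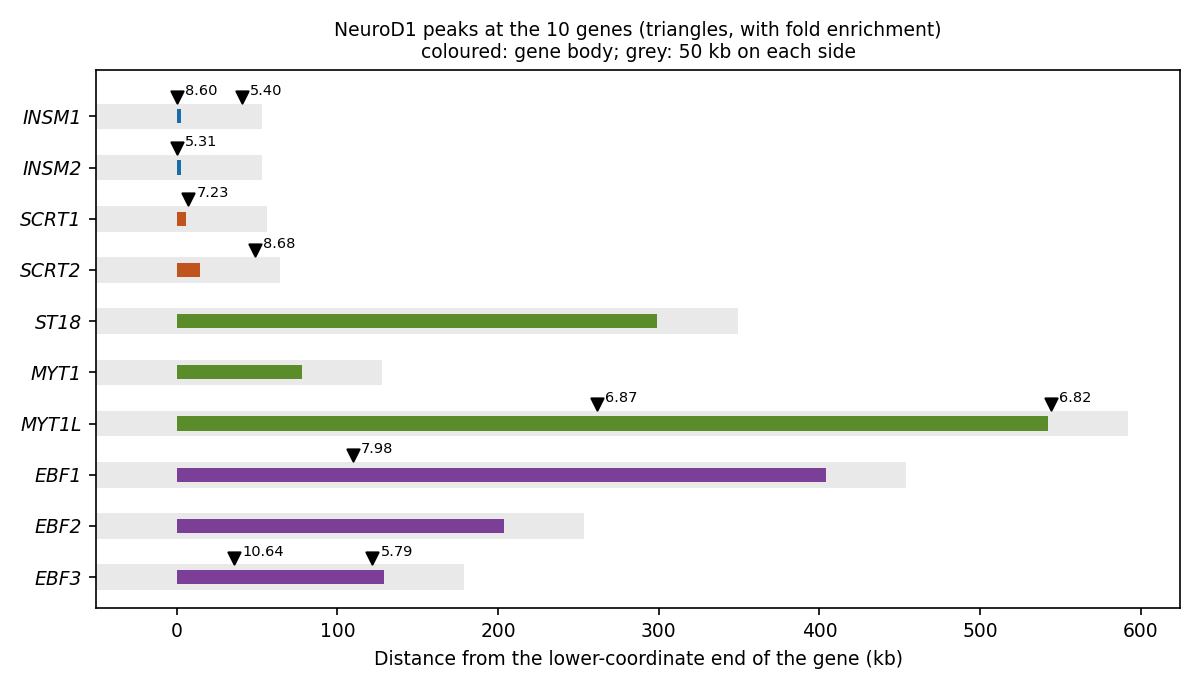
Position of the 10 NeuroD1 peaks (triangles, labelled with fold enrichment) against the distance from the lower-coordinate end of each gene (x axis, kb), with gene bodies in colour by family and the 50 kb on each side in grey. Peaks sat at one end of INSM1 and INSM2, beside SCRT1 and SCRT2, and mostly inside MYT1L, EBF1 and EBF3, and there was none at ST18, MYT1 or EBF2.

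Peaks in or within 50 kb of relatives and cofactors of these factors reached higher fold enrichments than those of the members by the same rule. In a list of 13 such genes, 7 had a peak within 50 kb (53.8%, against 39.9% of protein-coding genes), with 21 peaks and a median fold enrichment of 9.50, against 7.05 at the 10 members and 6.79 in the whole list. SIN3A, a corepressor scaffold of the Sin3 complexes that MYT family factors recruit, had 5 peaks, of which the highest was in the gene at a fold enrichment of 17.8 with 45 fragments (32.8 to 60.2). RCOR2, a CoREST family partner of the histone demethylase KDM1A, had 2 peaks, the higher at 14.9 with 30 fragments (20.2 to 42.8). Its relative RCOR1 had 1 peak, over its promoter window, at 5.79 with 11 fragments (5.49 to 19.7). HDAC2 had 1 peak at 5.89, and KDM1A and HDAC1 had none.

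ZNF423 and ZNF521, zinc finger proteins that bind EBF factors, had 7 and 2 peaks, with the highest at 14.5 and 13.5. That of ZNF423 lay 14.5 kb from the gene, and that of ZNF521 lay in the gene. Of the Snail relatives of SCRT1 and SCRT2, SNAI1 had 3 peaks, with 17.3 for the highest at 46.5 kb from the gene, and SNAI2 and SNAI3 had none. EBF4 and SIN3B also had no peak. In all, 5 of the 13 genes (SIN3A, SNAI1, RCOR2, ZNF423 and ZNF521) had a peak above 10.6, the highest value of the 10 members. The highest at SNAI1 and ZNF423 lay outside the gene, and which genes lie nearest to the 21 peaks was not examined. Of the 21 peaks, 8 (38.1%) lay above that value, against 729 of all 6183 (11.8%), and the members had only 10 peaks from which to take a highest value. The share of all protein-coding genes with a peak above that value was not counted. The lowest of the 21 peaks, at ZNF423, had a fold enrichment of 4.90.

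Among 22 other proneural targets and pan-neuronal genes, 14 had a peak within 50 kb (63.6%, against 39.9% of protein-coding genes), with 52 peaks and a median fold enrichment of 7.51, against 6.79 in the whole list. Within 3 kb it was 13 of 22 (59.1%), a share like that of the members with 6 of 10 (60%), against 21.4% of protein-coding genes. Of the 22 genes, 12 held 2 or more peaks within 50 kb. Protein-coding genes with a peak by the same rule held a median of 1, and their share with 2 or more was not counted. The Notch ligand gene DLL3 had 4, up to 8.17, and HES6, a bHLH factor that promotes differentiation, had 3, up to 14.0 with 28 fragments (18.6 to 40.5). The neurogenic bHLH genes NHLH1, NHLH2 and NEUROD4 had 6, 3 and 5 peaks, with the highest at 10.9, 15.0 and 11.0. That of NEUROD4 lay 27.5 kb from the gene, which had no peak within 3 kb. SOX4 and SOX11, SRY-related factors of immature neurons, had 2 peaks each, up to 13.6 (6.24 kb from SOX4) and 5.94. CBFA2T2, a corepressor gene, had 4 peaks up to 11.1, the highest 35.2 kb from the gene, and its relative CBFA2T3 had none. BTG2, an antiproliferative gene, had 3 peaks up to 10.6, the highest 22.2 kb from the gene. GADD45G and POU3F2 had 1 each, at 9.16 and 6.51. Which genes lie nearest to the 52 peaks of this list was not examined.

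Genes that mark the neuron itself were split. RBFOX3, which encodes the neuronal splicing factor NeuN, had 13 peaks within 50 kb of its 576 kb, the most of any gene listed. Its highest peak, at 30.5 with 121 fragments (100.4 to 144.6), lay 41.1 kb beyond the gene. ELAVL3, a neuronal RNA-binding protein gene, had 3 peaks up to 8.20, and RND2 had 2 up to 7.87. TUBB3, DCX, STMN2, L1CAM and ELAVL4, which encode neuronal cytoskeletal, adhesion and RNA-binding proteins, had none, and neither did DLL1 nor PROX1. Gene length, the number of neighbouring genes and their expression were not matched between the lists, and the differences between lists were not tested.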

How the data were processed

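One ChIP-seq peak list was used, from 1 library with no replicate; samples were grouped by the antibody in the labels. The members, the lists and the ways of comparing them were chosen with earlier results of these data known.

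Per the labels, the processing notes name BWA 0.7.17, MACS2 2.2.7 and hg38, while the deposited peak names carry macs3; the control, the filters and the q threshold are not given in the sources used here. The ratio deposited by the authors is the fold enrichment at the summit, with 1 added to the ChIP and the background. Poisson p-values and q-values were deposited on the −log10 scale. The score deposited by the authors is the −log10 q multiplied by 10 and cut to a whole number, and was not used. A further deposited column, also unused, holds fold enrichment per base of width.

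ChIP fragments and background at each summit were solved by the Poisson formula of MACS, using the deposited fold enrichment and −log10 p together. The 40 most frequent value pairs gave a weight of 0.980 for 1 fragment, searched between 0.7 and 1. The solution returned the −log10 p within 1% for all but 1 of the 6183 peaks, and the solver was tested on simulated data. The sequencing depth of the library is unknown. Intervals are exact Poisson or exact Clopper-Pearson intervals at 95% and cover counting error only, since copies of one molecule were not told apart.

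Genes were the 59661 RefSeq genes of GRCh38.p14 on chromosomes, matched by symbol (all 10 members), of which 20033 are protein-coding. Genes were named by a rule: all members with all their peaks, and the 2 further lists. E-boxes were searched as CANNTG, which covers both strands, with CATCTG or CAGATG and CAGCTG counted apart. Alternatives were other distances, a minimum of 5 for −log10 q or for fold enrichment, peak summits instead of whole peaks, and rank by −log10 q. Peaks were written from 1. Scripts ran in Python 3.11.15, with scipy 1.17.1 for the intervals, pandas 2.3.3 and numpy 2.4.6 for the tables and matplotlib 3.10.9 for the plots.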

Additional observations from a re-analysis of the deposited data

How the results depend on the processing

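The number of genes with a peak, 7 of 10, lay between 5 and 7 under every alternative run for it: it was 5 in the gene body, 6 within 3 kb or 10 kb or with a −log10 q of at least 5 (INSM2 was lost), and 7 within 100 kb, with a fold enrichment of at least 5, with summits instead of whole peaks, or with peaks nearest to the member. The last of these was added after seeing the data, as were the classes by length and GC. The minimum fold enrichment of 5 could remove no member peak, since the lowest was 5.31. The number of peaks, 10, fell to 6 in the gene body, as fewer bases were searched. The share of protein-coding genes with a peak, 39.9%, was 16.0% in the body, 21.4% within 3 kb, 25.1% within 10 kb and 50.8% within 100 kb, and 33.7% with a −log10 q of at least 5, each following from the area or the peaks left. The median fold enrichment of 7.05 lay between 6.87 and 7.98 under its alternatives. All 7 ranks by −log10 q lay within the rank range that the counting interval of fold enrichment allowed. These ranges were wide, for example 354 to 5229 for INSM1. Both measures come from the same fragments and background, so this is a weak check. E-boxes at peak summits outside promoter windows were not searched, for want of a genome sequence here. No paired analysis was possible because the list comes from a single library.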

Other observations

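Promoter windows under a peak differed in base composition from the others. Their median GC content was 68.0%, against 61.3% in the windows of protein-coding genes without a peak, and the INSM2 window had 73.0%. In windows of 70% GC or more, 52.9% of the 1008 with a peak and 50.4% of the 4734 without one held a CANNTG, and 5.85% and 4.56% held CATCTG or CAGATG. In windows of under 50% GC, 62.8% of the 43 with a peak and 77.8% of the 4303 without one held a CANNTG, and the shares were 60.8% and 74.2% from 50% to 60% GC and 57.6% and 64.2% from 60% to 70% GC. The share of CANNTG windows was thus lower under peaks in the 3 classes below 70% GC, and not in the class of the INSM2 window. CATCTG or CAGATG was present in 16.3% of windows with a peak and 19.5% without one below 50% GC. Its shares were 8.73% and 17.6% from 50% to 60% GC, and 10.02% and 10.39% from 60% to 70% GC. Its share was thus also lower under peaks in these classes, though only slightly from 60% to 70% GC. CAGCTG was present in 11.6% of windows with a peak and 14.7% without one below 50% GC, in 18.9% and 21.2% from 50% to 60%, in 20.2% and 19.4% from 60% to 70%, and in 17.3% and 15.8% at 70% or more. The differences within classes were not tested.

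Within the windows, the density of E-boxes was higher near the summit than in the rest for each motif counted. Over 1675 windows with 1 summit at least 50 bp from both ends, CATCTG or CAGATG occurred 0.392 times per kb within 50 bp of the summit (95% exact Poisson interval 0.301 to 0.501) and 0.276 times per kb in the rest of the same windows (0.223 to 0.338). For CAGCTG the values were 0.821 (0.687 to 0.973) and 0.669 (0.584 to 0.763), and for CANNTG they were 3.17 (2.90 to 3.45) and 2.90 (2.72 to 3.09). The separate intervals overlapped for each motif, and the differences themselves were not tested. A CATCTG or CAGATG within 50 bp of the summit, as at INSM2, was present in 3.64% of these windows (95% exact Clopper-Pearson interval 2.80% to 4.65%). Overlapping windows of neighbouring starts share sequence, so the windows are not independent. What else sets the position of these peaks was not tested.

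Beyond the 50 kb limit, 5 further peaks lay within 100 kb of INSM1, SCRT1 or SCRT2, at fold enrichments of 6.75 and 7.23, of 6.34 and 6.27, and of 9.64. With a wider limit these 3 genes would therefore have 4, 3 and 2 peaks by distance alone, while ST18, MYT1 and EBF2 would still have none. Which genes lie nearest to these 5 peaks was not examined.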
